A study of Mus musculus with 16 samples.

Results

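The cytotoxic granule and death ligand genes described here are 8 genes of the 26382 in a bulk RNA table of mouse hamstring muscle, taken by gene symbol. They are the granzymes *Gzma*, *Gzmb*, *Gzmk* and *Gzmm*, the pore protein perforin (*Prf1*), the granule membrane protein *Nkg7*, and the death ligands *Fasl* and *Tnfsf10* (TRAIL). The table held 16 libraries from 9 female C57BL/6 mice aged 8 to 10 weeks, and muscle was collected on day 14. The 5 mice numbered m862 to m866 gave 5 HRS legs (left hamstring, recombinant histidyl-tRNA synthetase at 3 to 5 mg/mL, the Jo-1 autoantigen) and 5 contralateral PBS legs (right hamstring, phosphate-buffered saline). Mice m867 and m868 received PBS only and gave both legs each, so these 4 libraries came from 2 mice. Mice m860 and m861 received an HRS fusion with MBP, written HRS-MBP here, and gave 1 library each, with no leg named. Their titles give 2 to 3 mg/mL, while their treatment labels give 3 to 5 mg/mL. All mice were injected, so no library came from an untreated mouse. The labels do not say whether the HRS-MBP muscles sampled were the injected ones. Side and treatment cannot be told apart in the leg comparison, because every HRS leg was a left leg. The sample titles place HRS in 1 leg, whereas the protocol describes injection of both hamstrings.

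Killer lymphocytes, mainly CD8+ T cells and NK cells, store granzymes and perforin in lytic granules. When a granule is released onto a target cell, perforin opens its membrane and granzymes enter and cleave proteins, which can start apoptosis. Fas ligand and TRAIL are TNF family ligands that start death through receptors on the target instead, and TRAIL is also known as an interferon-responsive gene made by several cell types. In inflammatory myopathies these molecules are studied as possible means by which infiltrating lymphocytes injure muscle fibers.

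Values are the deposited normalized counts. The reads behind the libraries, as implied by the smallest step between values, ran from 24.7 to 73.9 M (mega) reads in the HRS and contralateral legs, from 8.6 to 40.7 M in the PBS-only legs, and were 37.3 and 39.6 M in the HRS-MBP muscles. All 16 libraries carried high skeletal muscle markers, with summed normalized counts of 36460 to 175200 over 9 genes. Mouse m864 had the lowest muscle sum among the HRS legs (36460) and the highest T cell sum (132), while the HRS leg of m866 had the highest muscle sum (153700) and the lowest T cell sum (24.7). The contralateral leg of m866 had the lowest muscle sum of its group (109700), against 166700 to 175200 in the other 4. Because these are whole-muscle extracts, more cells of a type and more RNA per cell cannot be told apart. No source says that mice of 1 group were treated on separate days, and libraries of 1 mouse share an animal.

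The first comparison asked whether cytotoxic transcripts were higher in the HRS leg than in the PBS leg of the same mice. Of the 7 that passed a filter on low values, 5 members rose (*Gzma*, *Gzmb*, *Prf1*, *Nkg7* and *Fasl*) and 1 fell (*Gzmm*). The filter asked for a mean of at least 0.5 over all 16 libraries. The 5 that rose had means under 0.5 in the contralateral and PBS-only groups, so they passed it only through the HRS and HRS-MBP libraries. Without the filter the numbers were the same, 5 higher and 1 lower. *Tnfsf10* was higher in the HRS leg of every mouse but did not pass the test, and *Gzmk* was too low to be tested. The test was limma on log2(normalized count + 0.5), with a call at a Benjamini-Hochberg adjusted p under 0.05 over 16414 genes and a change beyond 1 on the log2 scale. Over all genes tested, 16.9% were called higher and 6.27% lower. All log2 fold changes are on that scale, which understates the change of low genes.

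**Figure D1:**
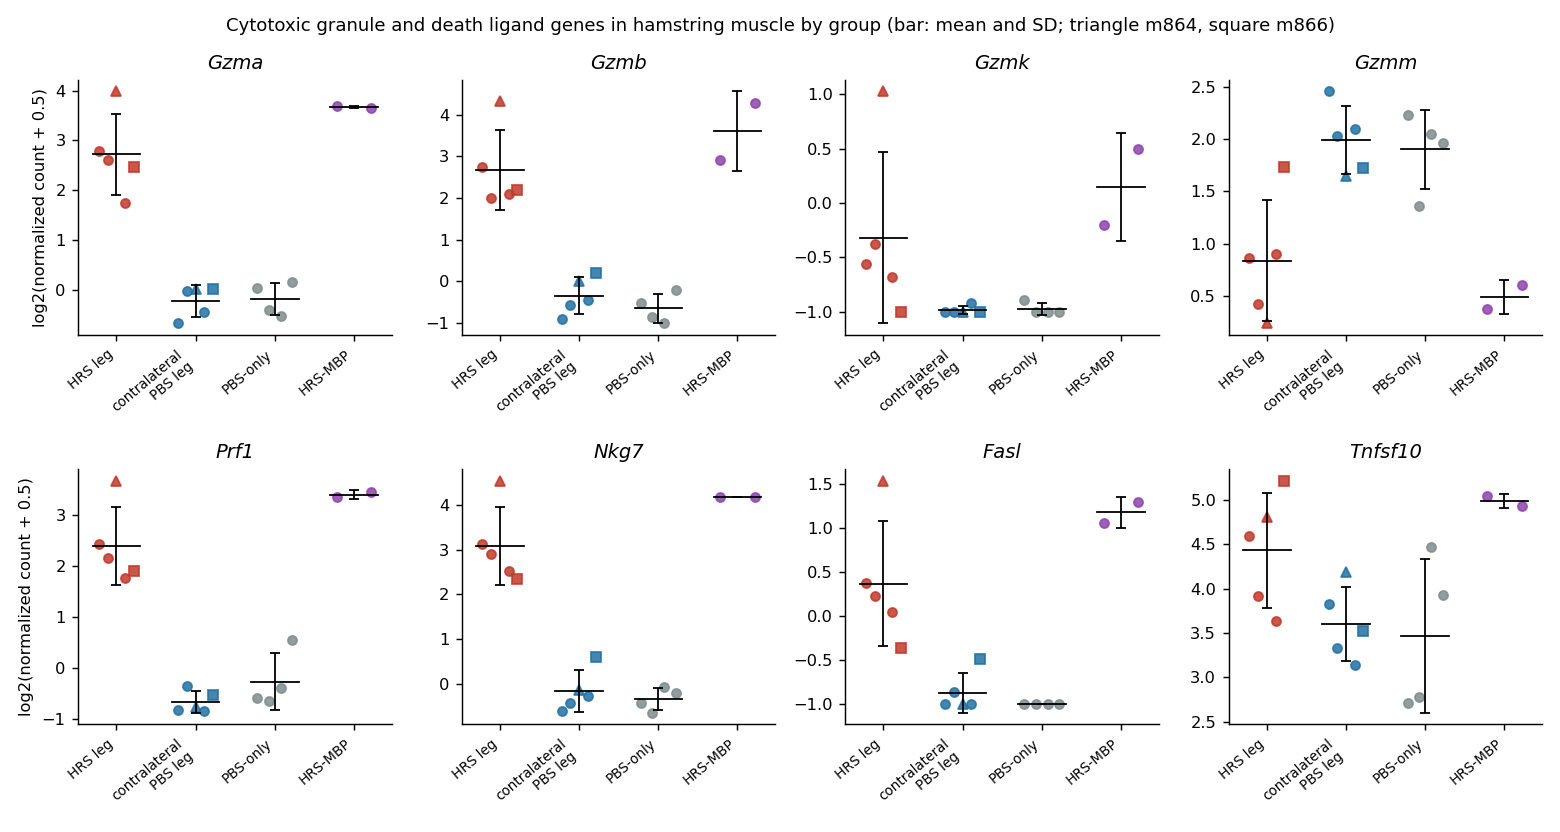
Level of each of the 8 members in every library, as log2(normalized count + 0.5), by group, with the group mean and SD drawn over the points; a triangle marks mouse m864 and a square m866. *Gzma*, *Gzmb*, *Prf1*, *Nkg7* and *Fasl* in the 5 HRS legs lie above all 5 contralateral legs, whereas *Gzmm* lies lower in 4 of them.

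Granzyme A, a tryptase, had normalized counts of 6.44, 5.61, 15.3, 2.85 and 5.05 in the HRS legs of m862, m863, m864, m865 and m866. The contralateral legs of the same mice, in that order, had 0.128, 0.478, 0.508, 0.235 and 0.512. All HRS legs were above all contralateral legs, and m864 was the highest. *Gzma* rose by a log2 fold change of 2.95 (SE 0.31, limma adjusted p = 5.02e-06), from a mean of 0.372 ± 0.178 (SD, n = 5) to 7.06 ± 4.82 (SD, n = 5). In pooled reads this was 2139 against 71, a depth-scaled ratio of 18.2 with a 95% interval of 14.4 to 23.5. Intervals on pooled reads cover counting error only.

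Granzyme B, the protease that cleaves caspases and Bid, followed with 6.25, 3.49, 19.5, 3.81 and 4.11 in the HRS legs in the same mouse order. The contralateral legs had 0.0320, 0.181, 0.508, 0.235 and 0.646. The groups did not overlap, and the HRS leg of m864 was more than 3 times each of the other 4. *Gzmb* rose by 3.02 (SE 0.40, limma adjusted p = 3.47e-05). The pooled reads were 2184 and 55, a ratio of 24.1 (18.4 to 32.03). Of the 2184 reads, 1090 came from the HRS leg of m864, so the ratio leans on that leg.

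Perforin was measured at 4.89, 3.94, 12.3, 2.92 and 3.24 in the HRS legs. In the contralateral legs *Prf1* was 0.0641, 0.280, 0.0924, 0.0588 and 0.188. The lowest HRS leg (m865) was still about an order of magnitude above the highest contralateral leg (m863). *Prf1* rose by 3.05 (SE 0.32, limma adjusted p = 4.55e-06), and its pooled ratio of 33.4 (23.3 to 49.6) came from 1652 and 30 reads.

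*Nkg7* encodes a small membrane protein of lytic granules that takes part in their release. It had 8.20, 7.01, 22.8, 5.23 and 4.58 in the HRS legs and 0.160, 0.247, 0.416, 0.323 and 1.02 in the contralateral legs. No values overlapped, although m866 had both the lowest HRS leg and the highest contralateral leg. The log2 fold change of *Nkg7* was 3.25 (SE 0.34, limma adjusted p = 4.81e-06), and it ranked 223 of 16414 genes on this scale. The pooled reads were 2924 and 78, a ratio of 22.7 (18.1 to 28.8), below that of *Prf1*.

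*Fasl*, the ligand of the death receptor Fas, was much less abundant. The HRS legs had 0.794, 0.669, 2.39, 0.534 and 0.280, and the contralateral legs 0, 0.0494, 0, 0 and 0.215. The groups were separate, but m866 stood close to the boundary from both sides. *Fasl* rose by 1.23 (SE 0.27, limma adjusted p = 0.00155). The reads were 289 and 11, a ratio of 15.9 (8.76 to 32.2). Without the HRS leg of m864 the log2 fold change was 0.94, under the size asked of a call, with a limma adjusted p of 0.00112. It was also under that size at pseudocounts of 1 (0.79) and 2 (0.48) and after quantile normalization (0.86).

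*Tnfsf10*, which encodes TRAIL, did not share the low baseline. It had 23.6, 14.6, 27.6, 11.96 and 36.7 in the HRS legs and 13.7, 9.61, 17.8, 8.29 and 11.01 in the contralateral legs. Here m866 was the highest HRS leg and m864 was second, and the groups overlapped. The log2 fold change was 0.83 (SE 0.35, 95% interval 0.08 to 1.58, limma adjusted p = 0.0512), so it was not called. It was called with all libraries scaled to equal totals (1.24), with limma-voom (1.27) and without the HRS leg of m865 (1.03).

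*Gzmk*, a granzyme of memory-type T cells, was near the detection limit. The HRS legs had 0.176, 0.270, 1.54, 0.1246 and 0, and in the contralateral legs only m865 was above 0, at 0.0294, which is 1 read. A floor of 3 reads corresponds to 0.0324 to 0.0935 in the HRS legs. The 130 pooled reads against 1 gave a ratio of 78.7, with a counting interval of 13.9 to 3134. Most of the 130 reads, 86, came from the HRS leg of m864. Tested without the filter on low values, *Gzmk* had a log2 fold change of 0.66 (SE 0.27, limma adjusted p = 0.061) and was not called. It overlaps *Esm1* on the opposite strand, and no source states whether counting used the strand, so its values are uncertain.

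*Gzmm*, a granzyme best known from NK cells, went the other way. The HRS legs had 1.32, 0.842, 0.679, 1.37 and 2.84 and the contralateral legs 5.00, 3.59, 2.63, 3.79 and 2.80. It was lower in the HRS leg of 4 mice, by 1.20 to 1.61 on the log2 scale, and level in m866 (a difference of 0.02), so the ranges overlapped. The log2 fold change was -1.16 (SE 0.26, limma adjusted p = 0.00179), from 3.56 ± 0.94 to 1.41 ± 0.85 (SD, n = 5 each). The pooled reads were 374 and 664, a ratio of 0.341 (0.300 to 0.388). The size fell short of a call at pseudocounts of 1 (-0.96) and 2 (-0.72), with libraries scaled to equal totals (-0.84) and with limma-voom (-0.73). Those scalings also moved the median of all genes from 0.08 to 0.45 and 0.48. Relative to that median *Gzmm* was at -1.24 as deposited, -1.297 at equal totals and -1.22 with limma-voom. *Tnfsf10* relative to the same medians was at 0.76, 0.78 and 0.79.

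By the exact permutation test (two-sided), *Gzma*, *Gzmb*, *Prf1*, *Nkg7* and *Fasl* reached 0.00794, the smallest p that 5 against 5 libraries allow. *Gzmm* gave 0.0238 and *Gzmk* and *Tnfsf10* 0.0476. For 5 of the 8 members every HRS leg was above every contralateral leg, which was so for 18.3% of all genes tested. No member had every HRS leg below every contralateral leg, which was so for 3.19% of all genes. Compared within mice, 6 of the 8 (*Gzma*, *Gzmb*, *Prf1*, *Nkg7*, *Fasl* and *Tnfsf10*) had the higher value on the HRS side in all 5 mice, against 26.3% of all genes tested. None was lower on that side in all 5, against 8.97%. Each of these 6 gave an exact sign-flip p of 0.0625, the smallest that 5 mice can give. *Gzmk* was higher in 4 of 5 mice and at 0 in both legs of m866 (exact sign-flip p = 0.13), and *Gzmm* was lower in 4 of 5 (exact sign-flip p = 0.13).

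**Figure D2:**
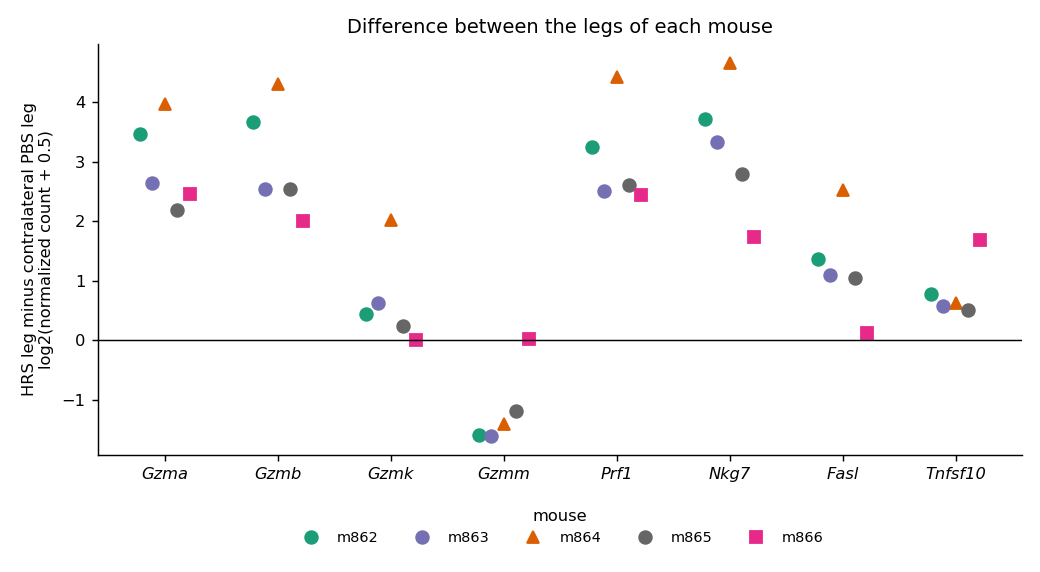
Difference between the HRS leg and the contralateral leg of each mouse, in log2(normalized count + 0.5), for each member; each point is 1 of 5 mice. For *Gzmm* m866 lies at 0.02 while the other mice lie between -1.61 and -1.20, and for *Tnfsf10* m866 is the highest at 1.69.

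The within-mouse log2 differences for *Gzma* ran from 2.19 to 3.97, for *Gzmb* from 2.01 to 4.31, for *Prf1* from 2.44 to 4.43 and for *Nkg7* from 1.74 to 4.67. Fitted with the mouse as a block, the same number of members passed (6), 5 higher and 1 lower.

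Levels between genes were compared per kilobase of exon. In the HRS legs the mean normalized counts per kilobase were 10.5 ± 8.2 for *Nkg7*, 7.02 ± 4.79 for *Gzma*, 5.17 ± 4.75 for *Gzmb*, 4.35 ± 1.90 for *Tnfsf10* and 2.11 ± 1.501 for *Prf1* (SD, n = 5). *Gzmm* (0.958 ± 0.578), *Fasl* (0.482 ± 0.432) and *Gzmk* (0.303 ± 0.454) came last. *Gzma* was above *Gzmb* in 5 of 5 HRS legs, whereas *Gzmb* was above *Tnfsf10* in 2 of 5, so that last pair has no stable order. In the contralateral legs *Gzmm* (2.42 ± 0.64) and *Tnfsf10* (2.29 ± 0.71) led and did not differ beyond their spread, with *Gzmm* above in 3 of 5. *Nkg7* (0.475 ± 0.375) and *Gzma* (0.370 ± 0.177) followed, also in that order in 3 of 5. *Gzmm* thus had the highest level of the 4 granzymes per kilobase in every contralateral leg and a lower level than *Gzma* in every HRS leg.

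All 8 are annotated as protein coding, and the deposited starts match GRCm38. *Gzma* lies at chr13:113093825-113100981 and *Gzmk* on the same strand at chr13:113171608-113225908. *Gzmb* is at chr14:56258838-56262260, in a cluster with other granzymes. *Gzmm* (chr10:79689020-79695261) and *Prf1* (chr10:61297833-61304680) share a chromosome, *Nkg7* is at chr7:43437073-43438249, *Fasl* at chr1:161780689-161788495 and *Tnfsf10* at chr3:27317028-27342427.

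To show the DNA beside the genes that rose together and the granzyme that fell, the stretch before the annotated transcripts is printed for 5 members (RefSeq windows, GRCm38.p6, 5′ to 3′ on the gene's strand). They lie at chr13:113100982-113101231 (minus strand) for *Gzma*, chr14:56262335-56262584 (minus) for *Gzmb*, chr10:61297586-61297750 (plus) for *Prf1*, chr7:43436888-43437072 (plus) for *Nkg7* and chr10:79688770-79689019 (plus) for *Gzmm*. Capitals mark matches, on either strand, to 5 motifs of factors that act in lymphocytes. These were RUNX (TGTGGT), T-box (AGGTGT), AP-1 (TGANTCA), the STAT site (TTCNNNGAA) and the interferon-response core (GAAANNGAA).
Gzma: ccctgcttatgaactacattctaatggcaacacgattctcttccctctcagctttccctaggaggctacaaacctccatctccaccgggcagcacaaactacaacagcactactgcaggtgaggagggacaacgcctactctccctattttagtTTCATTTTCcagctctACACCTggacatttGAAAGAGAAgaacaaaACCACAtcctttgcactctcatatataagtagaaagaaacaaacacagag
Gzmb: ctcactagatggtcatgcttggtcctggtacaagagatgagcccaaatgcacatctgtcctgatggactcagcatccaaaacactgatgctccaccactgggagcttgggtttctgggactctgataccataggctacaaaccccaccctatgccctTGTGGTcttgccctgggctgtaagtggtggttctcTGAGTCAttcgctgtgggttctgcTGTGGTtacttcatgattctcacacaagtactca
Prf1: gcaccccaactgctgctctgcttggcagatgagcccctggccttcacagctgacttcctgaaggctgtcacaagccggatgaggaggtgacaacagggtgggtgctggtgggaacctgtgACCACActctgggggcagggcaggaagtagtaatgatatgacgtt
Nkg7: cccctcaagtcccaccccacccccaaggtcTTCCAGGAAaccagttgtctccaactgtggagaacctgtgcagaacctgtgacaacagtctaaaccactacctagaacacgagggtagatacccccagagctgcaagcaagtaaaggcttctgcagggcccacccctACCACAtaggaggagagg
Gzmm: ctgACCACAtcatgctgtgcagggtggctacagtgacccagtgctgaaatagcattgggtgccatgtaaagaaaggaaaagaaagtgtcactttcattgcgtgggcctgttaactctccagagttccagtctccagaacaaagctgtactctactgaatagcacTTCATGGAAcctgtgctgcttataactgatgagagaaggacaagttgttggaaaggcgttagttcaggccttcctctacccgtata

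In windows from 250 bases before to 50 after the start, the RUNX letters were present in 5 of the 9 windows of the 8 members, against 16.8% of 32851 windows of all genes. They start at -50 in *Gzma*, -93 and -34 in *Gzmb*, -130 in *Prf1*, -83 in *Nkg7* and -247 in *Gzmm*, counted from the RefSeq start. *Gzmm*, which fell, therefore carries them as well, farther from the start than the others. The T-box letters were in 4 of 9 windows (13.7% of all), the STAT letters in 3 of 9 (8.3%), and AP-1 (7.81%) and the interferon-response core (8.56%) in 1 each. The windows of *Fasl* and *Tnfsf10* held none of the 5 motifs. A match only describes letters in a window.

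The second comparison set the HRS legs against the PBS-only mice. *Gzma*, *Gzmb*, *Prf1*, *Nkg7* and *Fasl* were again called higher and *Gzmm* lower, against 18.9% of all genes called higher and 5.87% lower. This comparison uses the same HRS legs as the first, so its calls are not a second experiment. The PBS-only legs (m867 left and right, m868 left and right) had *Gzma* at 0.5256, 0.256, 0.196 and 0.607 and *Prf1* at 0.162, 0.142, 0.261 and 0.970. The last library, the right leg of m868, was the shallowest of the series, and its *Prf1* value rests on 8 reads. The log2 fold changes were 2.91 for *Gzma*, 3.32 for *Gzmb*, 2.65 for *Prf1*, 3.42 for *Nkg7* and -1.07 for *Gzmm* (limma adjusted p = 0.0041 for *Gzmm*, and 2.42e-05 or less for the other 4).

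*Fasl* had 0 reads in all 4 PBS-only libraries and 289 in the HRS legs. Set against a floor of 3 reads over the PBS-only group the depth-scaled ratio was 26.4, and the 95% counting interval of the ratio starts at 21.3. Its limma call (log2 fold change 1.36) was lost at pseudocounts of 1 and 2 and after quantile normalization. *Gzmm* in the PBS-only legs was 4.21, 2.07, 3.65 and 3.40, overlapping the HRS leg of m866. Its call was lost without the HRS leg of m863 (-0.97) or of m864 (-0.92) and without the left leg of m867 (-0.96). It was also lost at pseudocounts of 1 and 2, at equal library totals and with limma-voom.

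*Tnfsf10* in the PBS-only legs split by mouse, at 6.07 and 6.37 in m867 and 21.6 and 14.7 in m868. The legs of m868 lay within the range of the HRS legs. Its log2 fold change of 0.96 (SE 0.37) had a limma adjusted p of 0.0357 and missed the size asked of a call. It was called without the HRS leg of m863 (1.09) or m865 (1.16) and without either leg of m868 (1.296 and 1.11), and at equal library totals (1.34) and with limma-voom (1.39).

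The third comparison asked whether the contralateral PBS leg of HRS mice differed from PBS-only muscle. With limma none of the 7 members tested was called, none had an unadjusted p under 0.05, and the count was 0 under every alternative run, limma-voom included. Of all genes tested 0% were called higher and 0.00609% lower. The log2 differences ran from -0.40 for *Prf1* (95% interval -1.11 to 0.32) to 0.30 for *Gzmb* (95% interval -0.60 to 1.20). For *Gzma* the interval was -0.74 to 0.66 and for *Gzmm* -0.49 to 0.67. All 8 members overlapped between these groups. *Fasl* was above 0 in 2 of 5 contralateral legs and in none of the PBS-only legs.

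The fourth comparison used the HRS-MBP muscles. In m860 and m861 *Gzma* was 12.4 and 12.1, *Gzmb* 7.09 and 18.9, *Prf1* 9.65 and 10.5 and *Nkg7* 17.5 in both. *Fasl* was 1.57 and 1.96, *Gzmk* 0.367 and 0.912, *Tnfsf10* 32.4 and 30.1 and *Gzmm* 0.794 and 1.02. The 2 muscles were close to each other except for *Gzmb* and *Gzmk*, where m861 was more than 2 times m860. Against PBS-only all 7 tested members were called, 6 higher and *Gzmm* lower (20.7% and 10.2% of all genes). The log2 fold changes were 3.86 for *Gzma*, 4.24 for *Gzmb*, 3.67 for *Prf1*, 4.51 for *Nkg7*, 2.17 for *Fasl*, 1.52 for *Tnfsf10* and -1.41 for *Gzmm*.

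*Fasl* in the HRS-MBP muscles, with 165 reads, had a ratio of 48.8 to the same floor, and the 95% counting interval starts at 39.3. *Gzmk*, tested without the filter on low values, was called higher in the HRS-MBP muscles (1.12, limma adjusted p = 0.0258). *Tnfsf10* had a limma adjusted p of 0.0148, and its log2 fold change was 1.46 without m860 and 1.57 without m861. Each of those fits leaves 1 HRS-MBP library, so the spread comes from the other groups and calls are not compared. At a pseudocount of 2 *Gzmm* and *Fasl* lost their call, and *Gzmm* also with limma-voom. With 2 against 4 libraries the exact permutation p cannot go below 0.0667, and *Gzma*, *Gzmb*, *Prf1*, *Nkg7*, *Fasl*, *Gzmk* and *Gzmm* all gave that value. *Tnfsf10* gave 0.133. The test treats the 4 PBS-only libraries as independent although they are legs of 2 mice, so these p-values are too small for a comparison of mice.

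HRS-MBP muscles and HRS legs were then compared directly. None of the 7 tested members was called, against 0.396% of all genes called higher and 0.067% lower. The HRS-MBP means were nevertheless higher for 6 of the 7, with log2 differences of 0.95 for *Gzma* (95% interval 0.08 to 1.83), 0.93 for *Gzmb* (-0.20 to 2.05), 1.02 for *Prf1* (0.13 to 1.90) and 1.08 for *Nkg7* (0.13 to 2.04). *Fasl* was at 0.81, *Tnfsf10* at 0.55 and *Gzmm* at -0.34. The *Gzmb* difference was 0.25 without m861 and 1.60 without m860. The limma adjusted p ranged from 0.289 to 0.669, and 4 members (*Gzma*, *Prf1*, *Nkg7* and *Fasl*) had an unadjusted p under 0.05. Only the HRS leg of m864 reached the HRS-MBP range of *Gzma*, *Prf1*, *Nkg7* and *Fasl*. Without that leg *Gzma* (1.27), *Gzmb* (1.34), *Prf1* (1.34), *Nkg7* (1.45) and *Fasl* (1.10) were called higher in the HRS-MBP muscles, with limma adjusted p from 0.0124 to 0.0494. The protein and the mice differ together between these groups and cannot be told apart, and whether the dose differed is not settled by the labels.

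Markers of the cells that could carry the members moved with them. Summed over 10 T cell genes, the HRS legs had 51.4, 32.1, 132, 33.4 and 24.7 normalized counts (m862 to m866), the contralateral legs 4.90 to 6.50 and the HRS-MBP muscles 104 and 143. Of the 10, 9 rose between HRS and contralateral legs. Summed over 9 NK genes the HRS legs had 17.1 to 61.1 and the contralateral legs 0.801 to 3.58, and all 6 tested rose. *Cd8a* rose by 2.76, *Cd8b1* by 1.84, *Cd4* by 4.0 and the NK receptor gene *Ncr1* by 2.12. The *Cd8b1* call was lost at a pseudocount of 2 (0.81). By T cell sum m864 was the highest HRS leg and m866 the lowest, and the same legs were highest and lowest for *Nkg7*, *Fasl* and *Gzmk*. For *Gzma*, *Gzmb* and *Prf1* m864 was also the highest. The lowest was instead m865 for *Gzma* (2.85) and *Prf1* (2.92) and m863 for *Gzmb* (3.49). *Tnfsf10* and *Gzmm* were highest in m866. The part of the marked cells in the members' rise was not tested.

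**Figure D3:**
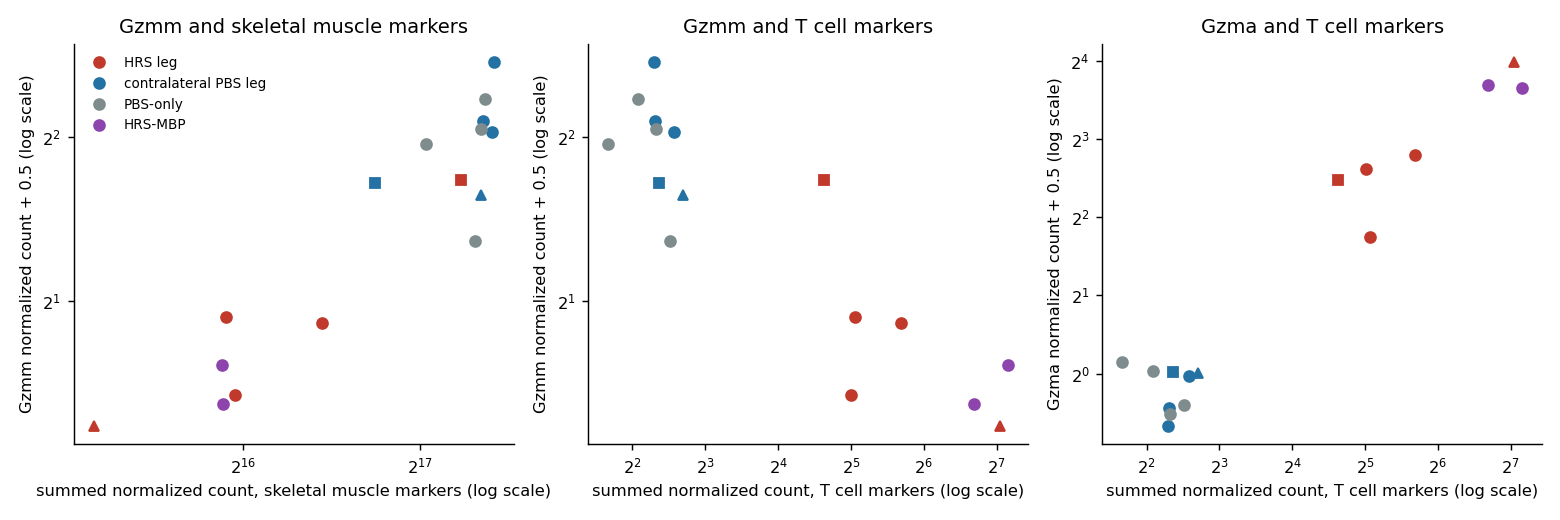
Normalized count of *Gzmm* against the summed skeletal muscle markers and the summed T cell markers, and of *Gzma* against the T cell markers, 1 point per library on log axes, colored by group. *Gzmm* is low in the libraries with low muscle sums, and the HRS leg of m866, with a muscle sum of 153700, has 2.84.

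*Gzmm* moved against these sums and with muscle. Over 9 skeletal muscle genes, 5 fell and none rose between HRS and contralateral legs, with a median log2 fold change of -1.18 against 0.08 for all genes. *Myh7*, the slow myosin heavy chain, fell by 2.76 on the log2 scale and *Myh1* had -0.54 without a call. After centring each group, *Gzmm* and the muscle creatine kinase gene *Ckm* had r = 0.79 over the 16 libraries, and *Gzmm* and *Acta1* r = 0.75. *Gzmm* with *Cd3e* had r = -0.64 and with *Ncr1* r = -0.52. The mitochondrial share of counts also moved, at 3.41% to 6.29% in the HRS legs of m862 to m865, 11.1% in that of m866 and 9.69% to 11.2% in the contralateral legs. Neither was tested as a source of the difference.

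Each member was also expressed relative to the mean log2 of *Cd3d*, *Cd3e* and *Cd3g*, the CD3 chains. In the contralateral legs *Cd3d* and *Cd3g* had medians of 0.0539 and 0.147 normalized counts, so the pseudocount weighs on every value there. *Gzmk* and *Fasl*, at 0 reads in 4 and 3 of these 5 legs, are not compared with them. Among the others *Prf1* stood at 2 reads in the legs of m862, m864 and m865 and *Gzmb* at 1 read in that of m862. *Tnfsf10* was lower in HRS legs by a log2 difference of -1.63 (exact permutation p = 0.0317), which ran from -2.55 at the smallest pseudocount tried to -0.61 at a pseudocount of 2, where the exact permutation p was 0.175. *Gzmm* was lower by -3.62 (exact permutation p = 0.00794), with -4.79 and -2.09 at the same pseudocounts. *Nkg7* was higher by 0.79 and *Gzmb* by 0.56 (exact permutation p = 0.0317 for each), *Prf1* by 0.59 (exact permutation p = 0.0159) and *Gzma* by 0.49 (exact permutation p = 0.0556). At the smallest pseudocount these 4 differences, in the same order, were 0.63, 0.55, 0.87 and 0.32, with exact permutation p of 0.0714, 0.103, 0.0317 and 0.294. At a pseudocount of 2 they were 0.70, 0.44, 0.31 and 0.43, with exact permutation p of 0.00794 for the first 3 and 0.0238 for *Gzma*. Against the PBS-only legs, at a pseudocount of 0.5, *Nkg7* was higher by 0.89 and *Gzmb* by 0.79 (exact permutation p = 0.00794 for each). *Prf1* differed by only 0.12 (exact permutation p = 0.675) and *Gzma* by 0.38 (exact permutation p = 0.238). *Gzmm* (-3.60) and *Tnfsf10* (-1.57) were again lower. Those PBS-only legs came from 2 mice and were counted as separate libraries.

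In the HRS legs, where the CD3 genes were well above 0, *Nkg7* was at 0.99 ± 0.15, *Gzma* at 0.62 ± 0.44, *Gzmb* at 0.58 ± 0.24 and *Prf1* at 0.29 ± 0.25 relative to them (SD, n = 5). All 8 members had lower means in the 2 HRS-MBP muscles than in the HRS legs on this scale. The exact permutation p, not adjusted over the 8 members, was from 0.0952 to 0.333 for 6 of them, where the smallest possible is 0.0476. For *Gzmk* (-0.94) and *Fasl* (-0.60), whose levels are low enough for the pseudocount to weigh on them, it was 0.0476, but at the smallest pseudocount the differences were -0.53 and -0.40, with exact permutation p of 0.286 and 0.0952.

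**Figure D4:**
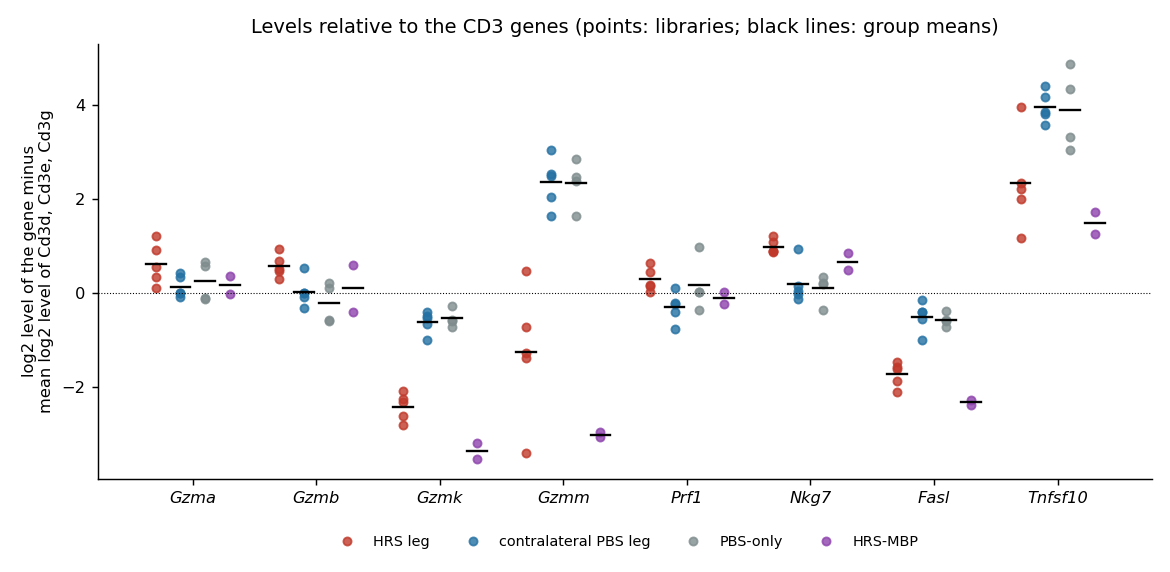
Each member's log2(normalized count + 0.5) minus the mean of the same for *Cd3d*, *Cd3e* and *Cd3g*, per library and group. *Nkg7* lies within 0.87 to 1.21 in all 5 HRS legs, and in the PBS groups, where *Cd3d* and *Cd3g* are near 0, the pseudocount weighs on the positions.

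Among the members the granule genes and *Fasl* varied together within groups. After centring, r between pairs of *Gzma*, *Gzmb*, *Gzmk*, *Prf1*, *Nkg7* and *Fasl* ran from 0.73 to 0.93 over the 16 libraries, which share depth and cell content. *Gzmm* had r from -0.40 to -0.64 with these 6 genes, and *Tnfsf10* from 0.03 to 0.34. The tested genes with the most similar centred pattern were *Psme2b* (r = 0.93) and *Ltb* (0.90) for *Gzma*, *Smpdl3b* (0.93) and *Cd3g* (0.93) for *Gzmb*, and the activating receptor gene *Klrk1* (0.96) and *H2-Ob* (0.95) for *Prf1*. For *Nkg7* they were *Rinl* (0.96) and *Tapbp* (0.95), for *Fasl* *Apol7e* (0.98) and *Acap1* (0.97), and for *Gzmk* *Ankrd66* (0.96) and *Srgn* (0.95), the granule proteoglycan. *Gzmm* was most like *Ube2cbp* (0.93) and *Gm15543* (0.90). *Tnfsf10* was most like *Iigp1* (0.97), an interferon-induced GTPase gene, and *Apol10b* (0.97).

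Most genes in a list for building and releasing lytic granules rose with the members. Of 13 tested, 9 were called higher between HRS and contralateral legs and none lower, with a median log2 fold change of 1.74 against 0.08 for all genes. *Unc13d*, which primes granules for fusion, rose by 3.01, whereas the lysosomal membrane gene *Lamp1* was at 0.13 and not called. With such lysosomal genes in it, the list summed to 934.9 to 1049 in the contralateral legs, where T cell sums were low. In the HRS legs it summed to 1141 to 2351. Which cells carried these genes was not tested. Other granzymes in the table (*Gzmc*, *Gzmd* and *Gzme*) were too low to be tested. Their sum was 0.0935 to 2.69 in the HRS legs, 0 to 0.0269 in the contralateral legs and 0 in the PBS-only legs, and reads shared between these similar genes and *Gzmb* could be assigned to either.

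In a list of inhibitors of granzymes or of other proteases, 5 of 6 genes were called higher, with a median of 2.06. *Serpina3g* rose by 5.17, from 0.634 to 49.7 normalized counts. *Serpinb9*, the inhibitor that protects cells from granzyme B, rose by 1.98, from 7.17 to 31.7. *Serpinb9b* rose by 2.17, *Serpinb1a* by 2.14 and *Serpinb6b* by 1.58. The *Serpinb9b* call was lost at a pseudocount of 2 (0.98). *Serpinb6a* had 0.73 and was not called for size, but it was called at equal library totals (1.15), after quantile normalization (1.04) and with limma-voom (1.17). These serpins have close paralogs, so counts may be split between them.

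On the receiving side, 3 of 6 genes of death receptors and related TNF receptors rose and none fell, with a median of 1.01. *Tnfrsf1b*, which encodes a TNF receptor without a death domain, rose by 3.25, *Tnfrsf1a* by 1.41 and *Tnfrsf25* by 1.16. The *Tnfrsf25* call was lost at pseudocounts of 1 (0.94) and 2 (0.68) and after quantile normalization (0.75). *Fas*, which binds Fas ligand, had a log2 fold change of 0.86 (limma adjusted p = 0.00508), and *Tnfrsf10b*, the mouse TRAIL receptor, had 0.48 (limma adjusted p = 0.0277), both short of the size asked of a call. At equal library totals *Fas* was called (1.25), as it was with limma-voom. All 3 decoy receptors rose, namely *Tnfrsf11b* (osteoprotegerin) by 1.57, *Tnfrsf23* by 1.51 and *Tnfrsf22* by 1.17. At a pseudocount of 2 *Tnfrsf22* (0.94) and *Tnfrsf11b* (0.85) lost the call, as did *Tnfrsf22* after quantile normalization (0.77). *Tnfrsf21* was at 0.06.

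Of 13 genes of death signalling 7 rose and none fell (median 1.20), from *Apaf1*, the apoptosome scaffold, at 2.18 to *Xiap*, an inhibitor of caspases, at 0.27 without a call. Of 9 other TNF family ligands tested, 7 rose and none fell (median 1.64). *Tnf* rose by 3.46 and *Tnfsf12* was at 0.83 without a call, which it had at equal library totals (1.24) and with limma-voom (1.22). Among 8 transcription factors of cytotoxic lymphocytes 7 rose (median 2.08), with *Runx3* at 2.91 and *Stat5a* at 0.21 without a call. Of 13 cytokine and receptor genes that act on cytotoxic cells 9 rose and 1 fell (median 1.89). *Il2rb*, the shared receptor chain for IL-2 and IL-15, rose by 4.15 and *Il12a* fell by 1.03. The *Il12a* call was lost without the HRS leg of m862 (-0.89) or the contralateral leg of m862 (-0.95), m863 (-0.99) or m865 (-0.99), at equal library totals (-0.72), with limma-voom (-0.61) and at pseudocounts of 1 (-0.84) and 2 (-0.62).

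**Figure D5:**
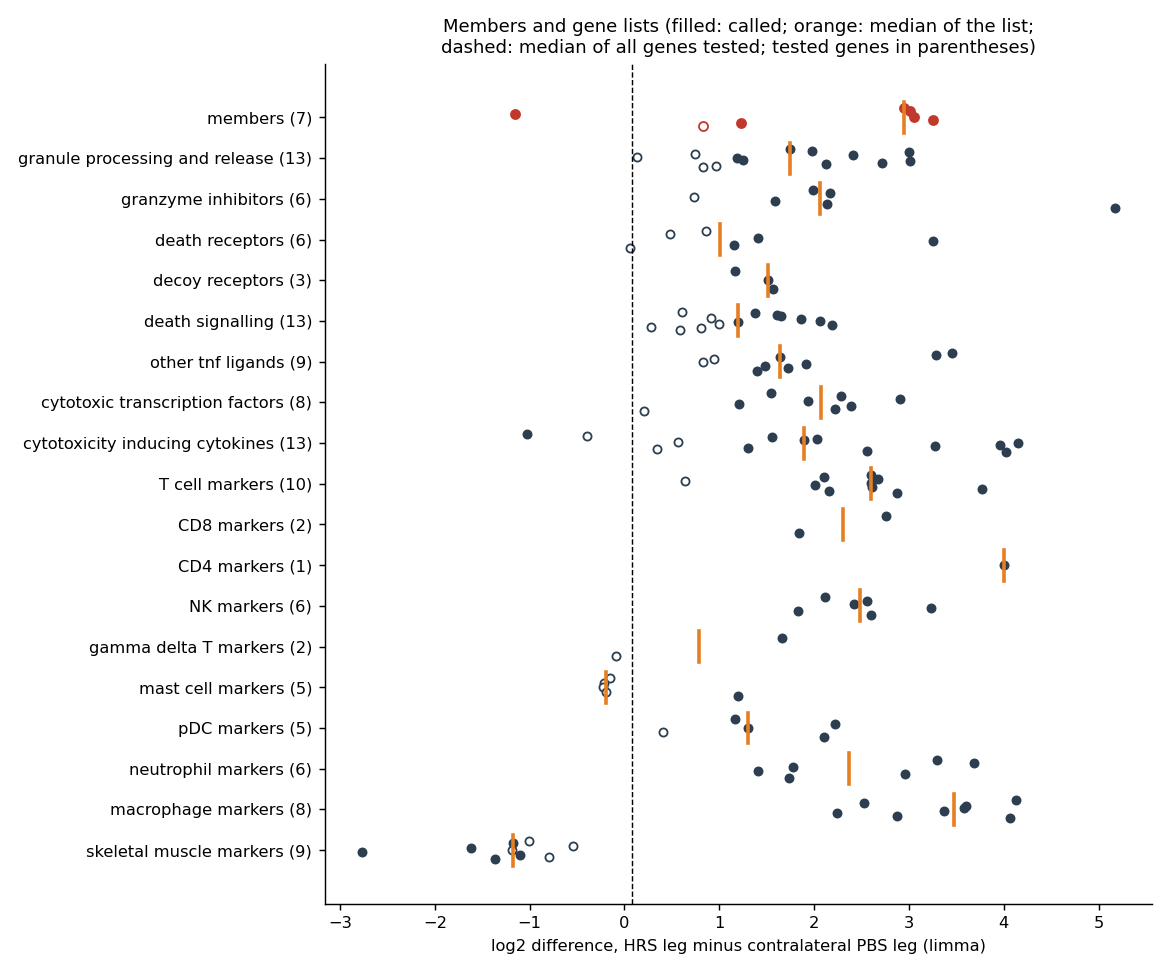
Log2 fold change between HRS and contralateral legs (limma) for the 7 tested members and for lists of related genes and cell markers, 1 point per gene, filled where called, with the list median in orange and the median of all genes dashed. The members span -1.16 to 3.25, and the skeletal muscle list is the one with a median of -1.18.

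Marker genes of some other cell types rose as well. All 8 macrophage genes were called higher (median 3.48), as were all 6 neutrophil genes tested (median 2.36) and 4 of 5 genes of plasmacytoid dendritic cells (median 1.31), a cell type that can carry *Gzmb*. Mast cell genes, whose granules hold related proteases, were called higher for 1 of 5 (*Kit*, 1.20), with a median of -0.19, and their sum overlapped between HRS legs (26.8 to 34.6) and contralateral legs (12.2 to 43.2). Of 2 genes of gamma delta T cells tested, *Trdc* rose by 1.66 and *Sox13* had -0.09, which turned positive when libraries were scaled to equal totals (0.31) and with limma-voom (0.33). The *Trdc* call was lost at a pseudocount of 2 (0.80). The calls of the neutrophil gene *Mpo* (0.94) and the dendritic cell gene *Siglech* (0.93) were lost without the HRS leg of m864. That of *Mpo* was also lost at pseudocounts of 1 (0.97) and 2 (0.62) and with the mouse as a fixed block (limma adjusted p = 0.0543). *Siglech* and the dendritic cell gene *Ccr9* also lost the call at pseudocounts of 1 (0.92 and 0.97) and 2 (0.66 and 0.65) and after quantile normalization (0.77 and 0.89). The call of *Kit* was lost without the contralateral leg of m862 (0.94), at a pseudocount of 2 (0.93) and after quantile normalization (0.78). The part of each of these cell types in the members' values was not tested.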

How the data were processed

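Poly(A) RNA of hamstring muscle was sequenced in 16 libraries. The authors deposited normalized counts per gene, here called signal. The submitters' processing notes name STAR 2.7.8a, limma and GRCm39, yet 98.9% of 25652 genes matched by symbol and chromosome start where GENCODE M21 (GRCm38) has them, so GRCm38 positions are given. The counter and the scaling method are not given in the sources used here. Only about 75% of low values were whole multiples of 1 read (tolerance 0.02), so the main test was not a count test, and limma-voom on the deposited values was an alternative. Read numbers of the members are their values divided by the value of 1 read.

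Groups came from the labels, and the members and gene lists were chosen with earlier results of these data known. One model with 4 groups was fitted with limma 3.58.1 (lmFit, eBayes with trend, R 4.3.3) to log2(normalized count + 0.5) of 16414 genes with a mean of at least 0.5, adjusted by Benjamini-Hochberg. Exact tests on the members were two-sided and not adjusted. The genes named were taken from the 8 members, 5 lymphocyte markers and the 2 genes most like each member. The others were taken from the highest and lowest of each list and from lists of up to 6 genes. Not every gene of this choice is printed. The list of B cell markers is not reported here. The 2 legs of m862 to m866 come from 1 animal, and their deviations correlated across genes with r of 0.119, 0.163, 0.0972, -0.0256 and -0.366. Left and right legs of PBS-only mice were counted as separate libraries although they share an animal, so those libraries are not independent. With the legs averaged per mouse the same numbers of members were called (6, 6, 0, 7 and 0 in the 5 comparisons).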

Additional observations from a re-analysis of the deposited data

Results flagged for a closer look

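The 31 sets of 4 or 5 values share libraries, and most members vary together. The chance rate of about 1 in 20 is for independent sets, so it does not apply here. By Dixon's test 12 sets held a value far from the others. Of these, 6 were the HRS leg of m864, which was the highest for *Gzma* (15.34), *Gzmb* (19.47), *Gzmk* (1.536), *Prf1* (12.25), *Nkg7* (22.79) and *Fasl* (2.394). This leg also had the highest T cell sum (132), the highest NK sum (61.1) and the lowest muscle sum (36460) of the HRS legs, and whether these account for it was not tested. Without it, *Gzma*, *Gzmb*, *Prf1* and *Nkg7* were still called higher than in contralateral legs.

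Mouse m866 gave 3. Its leg difference was the highest for *Gzmm* (0.01526) and for *Tnfsf10* (1.691), and its contralateral leg had the highest *Fasl* (0.2154). The other 3 rest on few reads. *Gzmk* was 0.02941 in the contralateral leg of m865 and 0.04043 in the left leg of m867, each 1 read, and *Prf1* was 0.9705 in the right leg of m868, which is 8 reads.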

How the results depend on the processing

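Of 843 values of the 7 members tested under alternatives, in the 4 comparisons other than contralateral against PBS-only, 806 stayed on the same side of the thresholds for a call, called or not, 23 lost a call, 14 gained one and none changed sign. Over all alternatives 4 to 7 members were called for HRS against contralateral legs and against PBS-only, the 4 at pseudocounts of 1 and 2, and 5 to 8 for HRS-MBP against PBS-only. Members called ranged over leave-one-out fits from 5 to 7 for HRS against contralateral legs and against PBS-only, and stayed at 0 for contralateral against PBS-only. Fits without m860 or m861 leave 1 HRS-MBP library. Their calls, counted in the totals above, rest on the spread of the other groups. Against HRS legs, HRS-MBP ranged from 0 to 5 members, the 5 being without the HRS leg of m864, where 590 genes were called in place of 76, and only 4 were called with the 2 groups fitted alone. With the mouse as a fixed replicate block 6 members were called, and 6 with a random replicate block. The block changed no member's call, and among context genes only that of *Mpo*. Over all genes, 2781 were higher and 1029 lower between the legs as deposited, 4172 and 322 at equal library totals, 4312 and 251 with limma-voom and 2093 and 1632 after quantile normalization, where the median was -0.16. Signs changed for *Sox13* (0.31 at equal library totals, 0.33 with limma-voom), *Mcpt4* (0.15 and 0.21), *Tnfrsf21* (-0.017 with median-ratio factors, -0.050 after quantile normalization) and *Myh1* (0.23 after quantile normalization). The cause was not tested. Few reads limit *Gzmk* and *Fasl*, and 2 mice limit both the PBS-only and the HRS-MBP groups.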
